A study of Mus musculus with 4 samples.

Results

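The genes described here are 10 genes of protein tyrosine phosphatase biology in T helper 17 (Th17) cells: Ptprc, Ptprj and Ptprcap at the cell surface, and Ptpn1, Ptpn2, Ptpn4, Ptpn6, Ptpn7, Ptpn11 and Ptpn22 inside the cell. They were chosen by name, with earlier results of these data known, and all 10 were found among the 50600 genes of the deposited tables. The 4 libraries came from Th17 primary cells of C57BL/6NJ mice, numbered as biological replicates 1 to 4, and the linked differentiation protocol is one for CD4+ T cells. The assay is labelled total RNA-seq, while the linked library protocol names poly(A)+ RNA. All 4 carry the same donor entry, age is unknown, sex was not collected, and the labels name no allele or treatment that sets any library apart. The file headers call the samples 24 hour samples, a time the labels do not give. No other cell type or condition was analysed here, so the values below are levels in 1 group, and the p-values measure only the spread between these 4 libraries, which may in part be technical. In bulk RNA, fewer cells of a type and less RNA per cell cannot be told apart.

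Protein tyrosine phosphatases remove phosphate from tyrosines and so oppose tyrosine kinases such as Lck, Zap70 and the Janus kinases (JAKs). In T cells they act in both directions. CD45, the product of Ptprc, removes the inhibitory phosphate from Lck and so permits antigen receptor signalling, while SHP-1, TC-PTP and the Ptpn22 product chiefly restrain antigen receptor or cytokine signals. Ptprcap codes for a small transmembrane protein that associates with CD45 and is not itself a phosphatase, so 9 of the 10 genes code for enzymes.

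Total counts ran from 19332509 to 48558772 read pairs per library. Levels are given as TPM, a count per exon length scaled to the same total in every library, computed here from the deposited counts and merged exon lengths. Of the T cell markers, the 5 protein-coding ones (Cd3d, Cd3e, Cd3g, Cd4 and Cd28) lay above 1 TPM (edgeR, quasi-likelihood, adjusted p under 0.05). So did 6 of 6 Th17 markers (Il17a, Il17f, Il23r, Ccr6, Il1r1 and Rora), and 45.9% of all protein-coding genes. Il17f, at 391 to 557 TPM, was called as varying between libraries in the test of negative binomial deviance described below (edgeR adjusted p = 0.0470). CD45 and SHP-1 are made by most blood cell lineages. Markers of other blood cells were therefore measured: 18 of 18, in 5 lists, lay below 1 TPM, as 51.5% of protein-coding genes did. Their summed level per library ran from 0.170 to 0.991 TPM for B cells, 0 to 0.326 TPM for macrophages and monocytes, 0.0950 to 0.366 TPM for NK and CD8 T cells, 0 to 0.0227 TPM for neutrophils and 0 to 0.318 TPM for erythroid cells. Lyz2, Csf1r, Ncr1, Klrb1c, S100a8, S100a9 and Hba-a1 had no count. The libraries differed in the Y-linked gene Ddx3y, at 77.8, 58.9, 0.240 and 0.0925 TPM in replicates 1 to 4, although all 4 carry the same donor entry. Whatever goes with Ddx3y cannot be told apart from other differences between replicates 1 and 2 and replicates 3 and 4.

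Annotated promoters of these genes differed in CpG content. RefSeq promoter windows on GRCm38.p6 (250 bases before to 50 after an annotated start) matched 8 of the 10 genes with 12 windows. Examples with few CpGs (Ptprc, Ptpn22) and with many (Ptpn1, Ptpn11) follow, each as the 250 bases before the start, 5′ to 3′ on the strand of the gene, with CpG dinucleotides in capitals, to show that contrast. Ptprc (minus strand) lies at chr1:138175306-138175555, Ptpn22 (plus strand) at chr3:103859545-103859794, Ptpn1 (plus strand) at chr2:167932077-167932326 and Ptpn11 (minus strand) at chr5:121191398-121191647.
Ptprc: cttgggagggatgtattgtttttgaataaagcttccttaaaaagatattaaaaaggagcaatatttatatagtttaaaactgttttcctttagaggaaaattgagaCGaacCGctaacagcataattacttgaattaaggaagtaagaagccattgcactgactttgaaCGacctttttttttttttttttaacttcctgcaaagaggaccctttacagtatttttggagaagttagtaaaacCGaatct
Ptpn22: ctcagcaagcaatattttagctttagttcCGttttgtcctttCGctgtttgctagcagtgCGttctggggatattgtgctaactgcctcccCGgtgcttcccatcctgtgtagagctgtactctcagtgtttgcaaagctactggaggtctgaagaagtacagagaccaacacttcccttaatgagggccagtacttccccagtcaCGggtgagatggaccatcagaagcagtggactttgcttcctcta
Ptpn1: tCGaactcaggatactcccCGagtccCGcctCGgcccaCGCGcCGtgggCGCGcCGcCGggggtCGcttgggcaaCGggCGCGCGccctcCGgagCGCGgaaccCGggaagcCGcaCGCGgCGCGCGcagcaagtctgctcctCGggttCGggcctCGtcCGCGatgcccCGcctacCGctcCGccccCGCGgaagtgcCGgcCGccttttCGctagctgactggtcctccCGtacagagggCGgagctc
Ptpn11: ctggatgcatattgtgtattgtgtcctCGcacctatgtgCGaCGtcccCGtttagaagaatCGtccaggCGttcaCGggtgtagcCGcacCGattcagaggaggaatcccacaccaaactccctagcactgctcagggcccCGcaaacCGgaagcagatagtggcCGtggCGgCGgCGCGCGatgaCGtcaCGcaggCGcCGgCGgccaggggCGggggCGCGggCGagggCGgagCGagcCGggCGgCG
The stretch before Ptprc holds 4 CpGs and that before Ptpn22 holds 5, against 41 before Ptpn1 and 31 before Ptpn11. In the full windows the CpG observed over expected was 0.48 for Ptprc and 0.38 for Ptpn22, 1.15 for Ptpn1 and 1.07 for Ptpn11, while the median of all 32851 windows was 0.38. The downstream windows of Ptprc and Ptpn22 stood at 0.17 each. Their upstream windows held 4 and 6 CpGs in full, against a median of 7 over all windows. The window of Ptpn4 (1.17) and the upstream window of Ptprj (0.93) lay with those of Ptpn1 and Ptpn11. The window of Ptpn6 (0.28) and both windows of Ptpn7 (0.35 and 0.27) were below the median, although their GC content of 59.0% to 63.3% was above the median of 52.7%. The upstream window of Ptprc was above the median in this ratio, though its GC content was 33.7%. Mean levels of Ptprc, Ptpn6, Ptpn7 and Ptpn22, with every window at 0.48 or lower, ran from 26.6 to 382 TPM. Those of Ptpn1, Ptpn4, Ptpn11 and Ptprj, with a window at 0.93 or higher, ran from 11.5 to 185 TPM. Gene-level counts do not show which start was used.

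**Figure D1:**
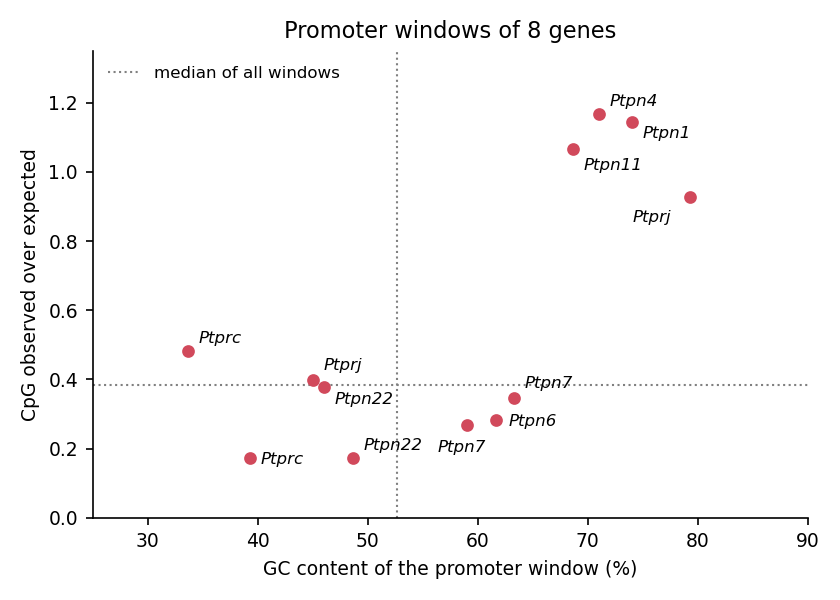
GC content (x, percent) and CpG observed over expected (y, ratio) of the 12 RefSeq promoter windows of 8 genes, 1 point per window, with dotted lines at the medians of all 32851 windows. The windows of Ptpn1, Ptpn4 and Ptpn11 and 1 of the 2 windows of Ptprj stand at 0.93 or higher, and the other 8 at 0.48 or lower.

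Short motifs were searched on either strand of the 12 windows, and each was found in 1 or 2 of them. The letters CCGGAA, a core bound by ETS factors, were found on either strand in the Ptpn1 and Ptpn11 windows, 1 match each, and in 14.9% of all windows. The Ptpn1 match lies after the start, outside the printed bases. TGTGGT, a core bound by RUNX factors, was found 3 times in the downstream window of Ptpn22 and in no other of the 12, against 16.8% of all windows. TATAAA was found in the upstream windows of Ptprc and Ptpn22, and in 13.6% of all windows. The Ptprc match is on the opposite strand, as TTTATA in the printed bases, and that of Ptpn22 again lies after the start. A match describes letters only.

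All 10 genes were expressed in 4 of 4 libraries. By edgeR's level test (Benjamini-Hochberg over 21764 protein-coding genes), 10 of 10 lay above 1 TPM, where 45.9% of all protein-coding genes did (51.5% lay below it). Likewise 10 of 10 lay above 10 TPM, where 35.3% did (63.5% lay below it). The 10 were chosen with earlier results of these data known, so these counts describe them and do not test the choice. Their median was 156 TPM, beside a median of 0.411 TPM over all protein-coding genes. From the highest to the lowest mean level the order was Ptprcap, Ptpn6, Ptprc, Ptpn7, Ptpn1, Ptpn2, Ptpn11, Ptpn4, Ptpn22 and Ptprj, a 69.3-fold range. Each gene in that order was higher than the next in 4 of 4 libraries with ranges that did not overlap, except Ptpn2 and Ptpn11, which overlapped and were each the higher in 2 libraries. The order rests on the gene length used, as shown after the single genes.

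**Figure D2:**
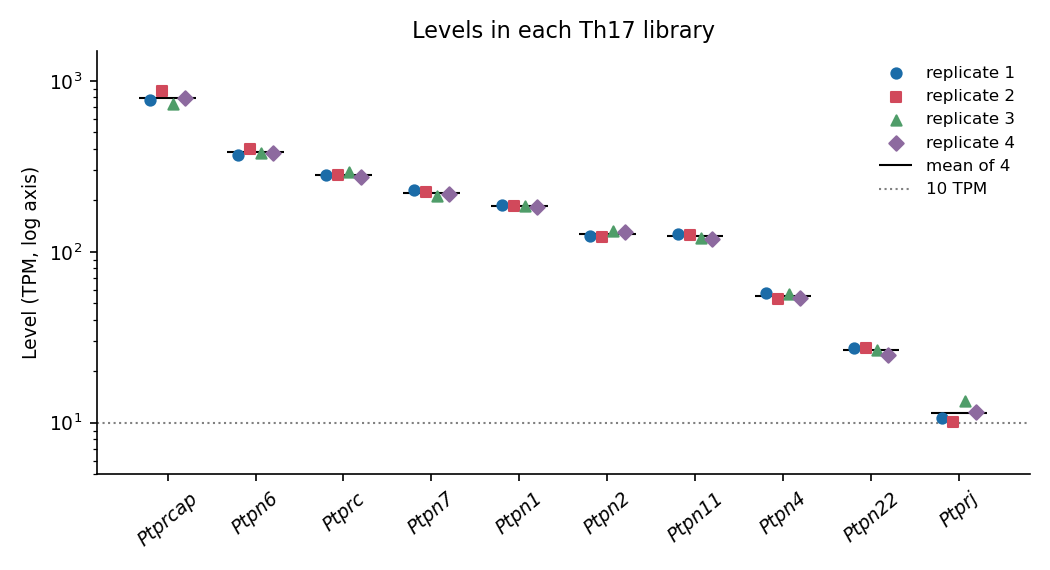
Level in TPM (y, log axis) of each of the 10 genes (x, by mean) in the 4 Th17 libraries, 1 marker per library, with a bar at the mean and a dotted line at 10 TPM. The libraries of each gene lie close together, from 737 to 867 TPM for Ptprcap down to 10.2 to 13.3 TPM for Ptprj.

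Ptprc, the gene of the receptor phosphatase CD45 (ENSMUSG00000026395, mm10 chromosome 1, 138062861 to 138175708, minus strand), gave more reads than any of the other 9. It had 63049, 29916, 55545 and 72812 counts in replicates 1 to 4. Per length this came to 283, 282, 291 and 273 TPM, a mean of 282 ± 7.53 TPM (SD, n = 4), with replicate 3 highest and replicate 4 lowest by 1.07-fold. It ranked 600th of the 21764 protein-coding genes. CD45 is made in isoforms that differ in extracellular exons, which counts per gene cannot separate.

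Ptprcap, whose product binds CD45 (ENSMUSG00000045826, mm10 chromosome 19, 4154606 to 4156751, plus strand), had the highest level per length of the 10. It stood at 777, 867, 737 and 795 TPM in replicates 1 to 4, a mean of 794 ± 54.5 TPM (SD, n = 4), and ranked 150th. Replicate 2 was the highest and replicate 3 the lowest. Ptprcap exceeded Ptprc by 1.49 ± 0.12 on the log2(TPM + 1) scale, in 4 of 4 libraries, with p = 0.13 by an exact permutation of signs, two-sided, a test that cannot go lower with 4 libraries. Its exons are short, at 927 bases, against 18313 bases for Ptprc. With the length of the longest transcript in place of merged exons the difference turned to -0.41 ± 0.12, so its direction depends on the length. On the opposite strand 4.21% of its exon bases overlap Rps6kb2, and the counting used strand. In the annotation used for counting, 0% of its exon bases overlap another gene on the same strand. Of the 50-base words in its GENCODE M21 transcripts, 93.9% also occur, on either strand, in transcripts of genes that overlap its locus. In genes elsewhere 0% of them occur.

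Ptprj, the gene of the receptor phosphatase CD148 (ENSMUSG00000025314, mm10 chromosome 2, 90429754 to 90580647, minus strand), was the lowest of the 10 and had the highest coefficient of variation. CD148 acts on Src family kinases. It gave 10.7, 10.2, 13.3 and 11.6 TPM in replicates 1 to 4, a mean of 11.5 ± 1.38 TPM (SD, n = 4), highest in replicate 3 and lowest in replicate 2. The level was above 10 TPM (edgeR adjusted p = 1.26e-05), a call that was lost with longest transcript lengths (edgeR adjusted p = 0.865). With longest coding transcripts the call turned, to below 10 TPM (edgeR adjusted p = 0.00296). It was lower than Ptprc, with a difference of -4.51 ± 0.14 on the log2(TPM + 1) scale in 4 of 4 libraries (exact sign-flip permutation p = 0.13). The difference was larger with the other lengths, at -6.04 with longest transcripts and -6.20 with longest coding ones. Annotated pseudogenes and other genes elsewhere share 9.65% of the 50-base words in its transcripts. Reads that map to several places were not counted, so its level may be understated.

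The paired SH2-domain phosphatases differed in level. Ptpn6 codes for SHP-1 (ENSMUSG00000004266, mm10 chromosome 6, 124720707 to 124738714, minus strand), which inhibitory receptors recruit through phosphorylated tyrosine motifs. With merged exon lengths it was the highest of the 9 phosphatases, at 370, 398, 381 and 380 TPM in replicates 1 to 4, a mean of 382 ± 11.9 TPM (SD, n = 4). The spread was narrow, 1.08-fold between replicate 2 and replicate 1. On the opposite strand 6.96% of its exon bases overlap Gm20531. Ptpn11 codes for SHP-2 (ENSMUSG00000043733, mm10 chromosome 5, 121130533 to 121191397, minus strand), which promotes Ras and MAP kinase signalling and is also recruited by PD-1. It gave 128, 126, 121 and 118 TPM, a mean of 123 ± 4.19 TPM (SD, n = 4). Ptpn6 thus exceeded Ptpn11 by 2.89- to 3.21-fold within each library, a difference of 1.63 ± 0.07 on the log2(TPM + 1) scale in 4 of 4 libraries (exact sign-flip permutation p = 0.13).

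The 2 closely related phosphatases of cytokine signalling were nearer each other. Ptpn2 codes for TC-PTP (ENSMUSG00000024539, mm10 chromosome 18, 67665511 to 67724595, minus strand), which acts on JAK1, JAK3 and STAT proteins. It stood at 123, 122, 131 and 131 TPM in replicates 1 to 4, a mean of 127 ± 5.19 TPM (SD, n = 4), higher in replicates 3 and 4. Ptpn1 codes for PTP1B (ENSMUSG00000027540, mm10 chromosome 2, 167932057 to 167979385, plus strand), which acts on JAK2 and TYK2. It gave 189, 185, 185 and 182 TPM, a mean of 185 ± 2.98 TPM, the smallest spread of the 10 with a coefficient of variation of 1.61%. Ptpn2 was lower than Ptpn1 in 4 of 4 libraries, with a difference of -0.54 ± 0.08 on the log2(TPM + 1) scale (exact sign-flip permutation p = 0.13). The ranges of Ptpn2 and Ptpn11 overlapped.

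Ptpn22 and Ptpn4 had lower levels than all of the others but Ptprj. Ptpn22 (ENSMUSG00000027843, mm10 chromosome 3, 103859795 to 103912247, plus strand) codes for a phosphatase that binds the kinase Csk and acts on Lck and Zap70. It gave 27.5, 27.2, 26.8 and 24.9 TPM in replicates 1 to 4, a mean of 26.6 ± 1.17 TPM (SD, n = 4), lowest in replicate 4. Ptpn4 (ENSMUSG00000026384, mm10 chromosome 1, 119652467 to 119837613, minus strand) codes for a phosphatase with FERM and PDZ domains that acts on the zeta chain of the antigen receptor. It gave 57.2, 53.1, 56.6 and 53.8 TPM, a mean of 55.2 ± 2.02 TPM. Ptpn22 was lower than Ptpn4 by merged exon length, with a difference of -1.03 ± 0.06 on the log2(TPM + 1) scale in 4 of 4 libraries (exact sign-flip permutation p = 0.13). By the longest transcript the sign turned, to 0.18 ± 0.06 in 4 of 4 libraries. No direction therefore holds for this pair.

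Ptpn7, the gene of haematopoietic tyrosine phosphatase, which acts on the MAP kinases ERK and p38 (ENSMUSG00000031506, mm10 chromosome 1, 135132700 to 135145317, plus strand), was among the higher ones. It gave 230, 222, 213 and 217 TPM in replicates 1 to 4, a mean of 221 ± 7.69 TPM (SD, n = 4). It exceeded Ptpn22 by 3.01 ± 0.06 on the log2(TPM + 1) scale in 4 of 4 libraries (exact sign-flip permutation p = 0.13). The 6 differences between pairs above share the same p, which stays 0.13 adjusted over the 6.

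Some places in this order depended on the gene length. The merged exons of Ptprc in the deposited tables span 18313 bases, 3.19 times its longest transcript in GENCODE M21 and 3.61 times its longest coding one. Those of Ptpn22 are 2.46 times its longest transcript. Among the 10194 protein-coding genes at 1 TPM or more the median ratio to the longest transcript was 1.20, and 0.481% of them reached 3. With longest transcript lengths Ptprc stood at 713 ± 18.9 TPM (SD, n = 4), first of the 10, ahead of Ptprcap at 538 ± 36.9 TPM. The longest transcript of Ptprcap, at 1082 bases, exceeds the 927 bases counted, so this length may understate Ptprcap. Ptpn22 stood at 51.7 ± 2.26 TPM, above Ptpn4 at 45.4 ± 1.65 TPM. Ptpn6 (367 ± 11.5 TPM), Ptpn7 (285 ± 9.78 TPM), Ptpn1 (189 ± 2.94 TPM) and Ptprj (9.91 ± 1.20 TPM) kept their places relative to each other. With longest coding transcripts Ptpn11, at 119 TPM, also stood above Ptpn2, at 107 TPM. The longest transcript length moved the median of these genes by -0.07 on the log2 scale. In a comparison of 1 gene between libraries its own length cancels, and only the total used for scaling changes.

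**Figure D3:**
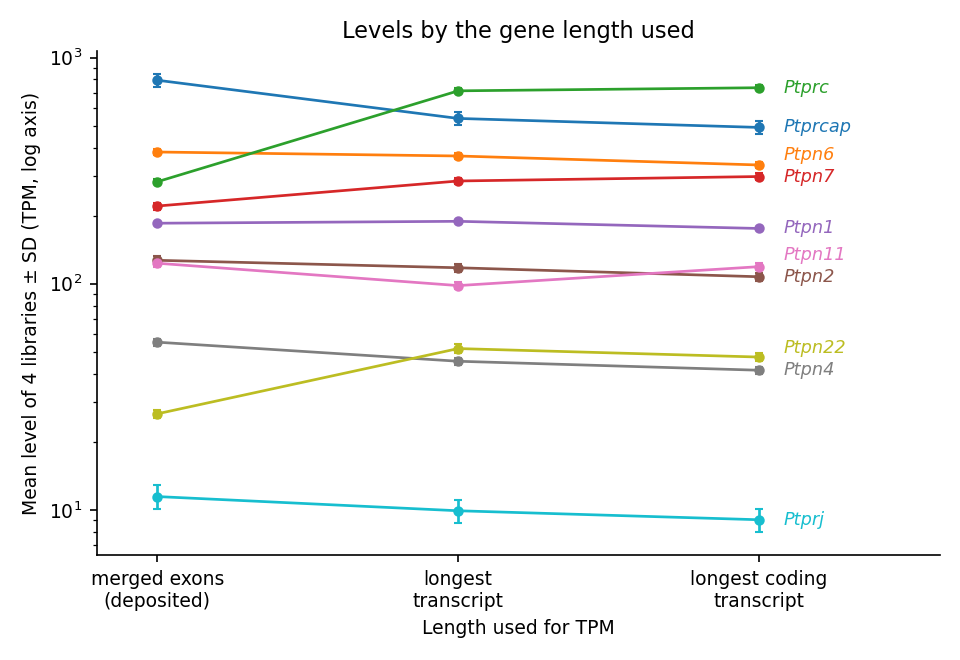
Mean level ± SD over 4 libraries (y, TPM, log axis) of the 10 genes when TPM is computed with merged exon lengths as deposited, the longest transcript or the longest coding transcript (x), 1 line per gene. Ptprc lies at 282, 713 and 736 TPM and crosses Ptprcap, and Ptpn22 crosses Ptpn4.

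Between the highest and the lowest library, levels of the 10 genes differed by 1.04-fold (Ptpn1) to 1.31-fold (Ptprj). The test was of negative binomial deviance (edgeR, trended dispersion, Benjamini-Hochberg over 12849 genes). The trend was fitted to these same 4 libraries, so the test asks only whether a gene exceeds the spread usual at its level. By this test 0 of 10 varied between libraries beyond the trend, and 0.366% of all genes tested did. At that share a count of 0 does not set these genes apart. With DESeq2's size factors the count was also 0. At an unadjusted p under 0.05 in the same edgeR model the count was 1 of 10, Ptprj, with an adjusted p of 0.999. Over all genes tested the count was 628 of 12849. Coefficients of variation ran from 1.61% for Ptpn1 to 12.03% for Ptprj, with a median of 3.57%, beside 4.23% over the 7558 protein-coding genes at or above the level of Ptprj. Replicate 1 was the highest for 5 of the genes and replicate 4 the lowest for 4. In 6 of 10 genes the levels of replicates 1 and 2, the libraries with Ddx3y, did not overlap those of replicates 3 and 4, while 34.8% of the 12849 genes were apart in this way. Ptpn1, Ptpn7, Ptpn11 and Ptpn22 were the higher in replicates 1 and 2, and Ptpn2 and Ptprj the lower. The part of that difference between libraries was not tested.

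**Figure D4:**
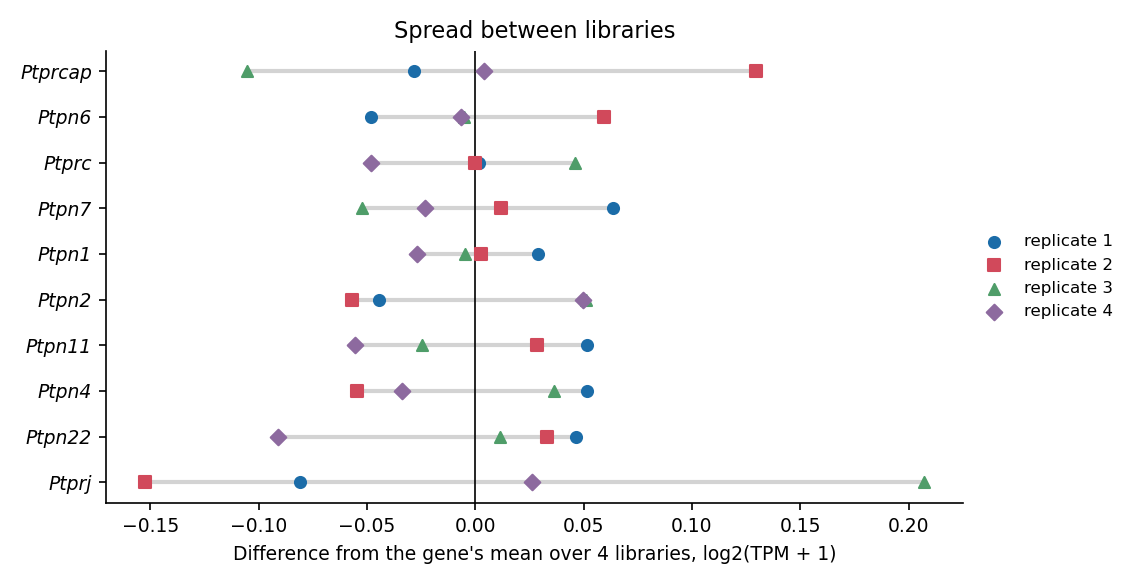
Difference of each library from the mean over the 4 libraries of the same gene (x, log2(TPM + 1)) for the 10 genes (rows), 1 marker per library. The points of Ptpn1 lie within 0.03 of the mean, while Ptprj reaches from -0.15 in replicate 2 to 0.21 in replicate 3.

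The 9 phosphatases carried most of the classical phosphatase transcripts measured. Their summed TPM was 84.6% ± 0.286 (SD, n = 4) of that of 38 classical phosphatase genes, which are the 9 and 29 others. Ptpn6 alone made up 22.9% ± 0.719, Ptprc 16.9% ± 0.340, Ptpn7 13.2% ± 0.436 and Ptpn1 11.1% ± 0.121, while Ptpn22 made up 1.59% ± 0.0575 and Ptprj 0.686% ± 0.0827. These shares use merged exon lengths. With longest transcripts Ptprc and Ptpn6 changed places, while the others named kept their order. Ptprc then made up 34.3% ± 0.562, Ptpn6 17.6% ± 0.575 and Ptpn22 2.48% ± 0.0829. The summed level of the 38 was 1679, 1678, 1679 and 1650 TPM in replicates 1 to 4. The 9 had been chosen by name as T cell phosphatases with earlier results of these data known, so the share describes them and is not a test.

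Of 10 other non-receptor phosphatases, the same edgeR test called 7 above 1 TPM and 2 below it (45.9% and 51.5% over all protein-coding genes). It left 1 uncalled. Ptpn23, an endosomal family member, stood at 35.4 ± 1.43 TPM, Ptpn9 at 28.1 ± 1.34 TPM and Ptpn12, known as PTP-PEST, at 20.4 ± 0.887 TPM (SD, n = 4). Ptprj was lower than each of these 3 by mean level. Ptpn22 was lower than Ptpn23 and Ptpn9 with merged exons, but higher with longest transcripts, at 51.7 TPM against 29.5 and 25.2 TPM. Ptpn20 was never counted. With a floor of 3 counts in all, its level could be at most 0.0226 TPM, counting error only.

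Of 19 other receptor phosphatases, 4 were called above 1 TPM and 13 below it (45.9% and 51.5% over all protein-coding genes). Another 1 was left uncalled, and Ptprv was not tested because its annotated type is not protein coding. Ptpra, which also acts on Src family kinases, stood at 73.8 ± 1.63 TPM, Ptprs at 45.5 ± 1.90 TPM and Ptprv at 11.1 ± 0.609 TPM (SD, n = 4) with merged exons. With longest transcripts Ptpra and Ptprs both stood at 36.6 TPM. The longest transcript of Ptpra, at 5325 bases, exceeds the 3335 bases over which its reads were counted, so that value may understate Ptpra. No read pair was counted for 8 of the 19, among them Ptprz1, whose level could be at most 0.00490 TPM by that floor. Ptprc was higher than each of these 19 by mean level, and Ptprj was lower than Ptpra and Ptprs.

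**Figure D5:**
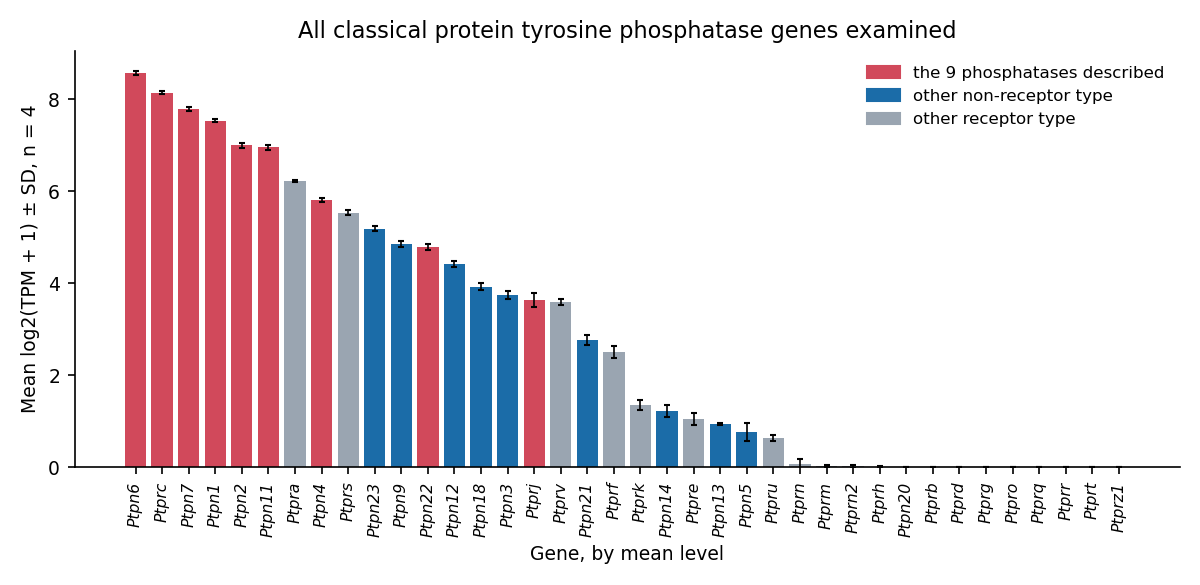
Mean log2(TPM + 1) ± SD over 4 libraries (y) of the 38 classical phosphatase genes (x, by mean level), coloured as the 9 described, other non-receptor type and other receptor type. The 6 highest bars, from Ptpn6 to Ptpn11, are among the 9, and 9 of the other 29 genes have no count.

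Tyrosine phosphatases outside the classical family were present as well. Of 13 such genes, 11 were called above 1 TPM and 2 below it (45.9% and 51.5% over all protein-coding genes). Ptp4a2 and Ptp4a3, of the PRL family, were at 349 ± 7.84 TPM and 193 ± 10.5 TPM, and the cell cycle phosphatase Cdc25a at 80.5 ± 2.79 TPM (SD, n = 4). With longest transcripts Ptp4a3 was the lower of the last pair, at 109 TPM against 136 TPM for Cdc25a. The longest transcript of Ptp4a3, at 6459 bases, exceeds the 4619 bases counted. With longest coding transcripts Ptp4a3 was again the higher, at 182 TPM against 128 TPM. Eya4 was not counted in any library, for a level of at most 0.00742 TPM. Ptpn6 was higher than Ptp4a2 by mean level. Ptprc was lower than Ptp4a2 with merged exons and higher with longest transcripts, at 713 TPM against 331 TPM.

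The tyrosine kinases on which these phosphatases act were expressed beside them. Of 12 kinases, 11 were called above 1 TPM and 1 below it (45.9% and 51.5% over all protein-coding genes). Lck, the kinase that CD45 activates, stood at 593 ± 15.7 TPM, Jak2 at 418 ± 9.09 TPM and Csk, the partner of the Ptpn22 product, at 307 ± 11.9 TPM (SD, n = 4). Syk was the lowest at 0.0620 ± 0.0452 TPM. Within libraries Ptprc was 0.461 to 0.505 of the level of Lck, and Ptpn22 was 0.0831 to 0.0911 of the level of Csk. Both ratios use merged exon lengths. With longest transcripts Ptprc was instead above Lck, at 1.10 to 1.20 of its level, and Ptpn22 was 0.150 to 0.165 of the level of Csk.

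Genes listed as docking proteins and recruiting receptors ranged widely. Binding of their products to SHP-1 or SHP-2 was not measured here. Of the 19 listed genes, 12 were called above 1 TPM and 6 below it (45.9% and 51.5% over all protein-coding genes), and 1 was left uncalled. Cd5 led at 1985 ± 36.1 TPM (1087 TPM with longest transcripts, 992 TPM with longest coding ones), followed by Btla at 665 ± 8.73 TPM and Pdcd1, the gene of PD-1, at 314 ± 14.7 TPM (SD, n = 4). The longest transcript of Cd5, at 2989 bases, exceeds the 2069 bases counted, so its values with the other lengths may understate it. Pirb, known from myeloid and B cells, was not counted in any library, for a level of at most 0.0156 TPM.

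The genes nearest in level were found by Euclidean distance in log2(TPM + 1) over the 4 libraries among protein-coding genes. For Ptpn6 they were Capzb (distance 0.0269), Ier2 (0.0754) and Acly (0.0804), with mean levels of 381, 388 and 376 TPM. For Ptprj they were Gng12 (0.118), Zfp524 (0.127) and Serinc5 (0.131), with mean levels of 11.5, 11.8 and 11.5 TPM. The measure reflects mean level more than pattern, since the libraries differ little.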

How the data were processed

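Per the file headers, the authors counted read pairs per gene over exons of GENCODE M13 (featureCounts 1.4.6-p4, reverse stranded, both ends mapped). Per the labels the assembly is mm10. The deposited counts are whole numbers and not normalized, and the tables also give merged exon lengths (in bases, another unit). No source used here gives a version for the aligner. The option that counts multi-mapping reads does not appear in the headers. Text notes held no measurements and were not used.

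Symbols came from GENCODE M21 by Ensembl identifier (50376 of 50600 genes, 99.6%). TPM was computed over all genes. Levels were tested against 1 and 10 TPM with edgeR 4.0.16 in R 4.3.3: the intercept of a quasi-likelihood fit, offset by the count expected at that level, was set against 0. The scripts were tested on simulated data. Variation was tested by negative binomial deviance at the trended dispersion, with TMM factors, for genes averaging 10 counts or more. The threshold was an adjusted p of 0.05. Pairs were tested within libraries on log2(TPM + 1). The 6 pairs of libraries differed by a chi-square per degree of freedom of 4.57 to 12.3, so none is a duplicate. Reads carry no molecular identifiers, so counting limits cover counting error only.

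The alternatives were DESeq2 1.42.0, other size factors, dispersions, filters, pseudocounts, denominators and lengths, and leaving out each library. Named genes were the 10, the 3 highest and the lowest of each related list, and the genes nearest to Ptpn6 and Ptprj. The members, lists and tests were chosen with earlier results of these data known. Alternatives by longest coding transcript, the single shares and kinase ratios by other lengths, and the motifs were added after the data were seen.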

Additional observations from a re-analysis of the deposited data

Results flagged for a closer look

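Values of 37 results were examined for a library far from the other 3, which chance gives in about 1 of 20. Of these, Ptpn20, Ptprz1, Eya4 and Pirb had no count in any library, so no gap could be measured. In 3 of the results the gap was wide. Ptprs was at 48.3 TPM in replicate 3, against 44.3 to 44.9 TPM in the others. Csk was at 325 TPM in replicate 2, against 299 to 304 TPM in the others. Syk was at 0.129 TPM in replicate 2, against 0.0308 to 0.0440 TPM in the others. Its levels rest on only 5, 7, 3 and 6 counts in replicates 1 to 4. None of the 10 genes was among them.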

How the results depend on the processing

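No paired analysis was possible because the libraries form 1 group. All 10 genes stayed above 1 TPM under each alternative run, and 0 were called as varying between libraries. Above 10 TPM the count was 9 with longest transcript lengths and with longest coding transcript lengths, and 10 in the other alternatives; the log2 level of Ptprj over 10 TPM was then -0.01 (adjusted p = 0.865) and -0.14 (adjusted p = 0.00296, called below 10 TPM by edgeR). Ptprcap minus Ptprc turned from 1.49 to -0.41 and -0.58 with these 2 lengths, and Ptpn22 minus Ptpn4 from -1.03 to 0.18 and 0.19. Both turned because the lengths changed. The share of the 9 phosphatases among 38 was 90.2% and 89.9% with these lengths, and 84.4% to 84.7% leaving out 1 library in turn. The other 4 differences between pairs kept their sign under 8 of 8 alternatives, although Ptprj minus Ptprc moved from -4.51 to -6.04 and -6.20 with these 2 lengths. Among all genes tested for variation, 47 were called in the fit described, 34 with no count filter, 356 with a common dispersion, and 24 to 39 leaving out 1 library in turn. The lowest, 24, was without replicate 4. At the shallowest total of 19332509 counts, Ptprj still had 491 counts, so depth limits mainly the genes near 0.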
